A study of Mus musculus with 20 samples.

Results

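The clustered protocadherin locus was taken as chr18:37050001-38010000 of the mouse build mm9, a stretch of 960 kb, and every deposited ChIP-seq peak that overlaps it was counted as a member. The 12 peak lists hold 1324083 peaks, of which 676 overlap the locus. Of these, 613 came from the 4 TFIIIC libraries, 31 from the 4 H3K27me3 libraries, 14 from the 2 CAP-D3 libraries and 18 from the 2 CAP-H2 libraries. The position alone chose the peaks, so the rule did not use their number, size, score or sharing between libraries. The members and tests were nevertheless chosen with earlier results of these data known.

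All samples were mouse embryonic fibroblasts of the C57BL/6 strain, prepared from E13.5 embryos and harvested while proliferating at passage 4. WT cells were compared with cells labelled Rb1L/L, homozygous for an Rb1 allele that alters the cleft of the retinoblastoma protein binding partners with an LXCXE motif. Each genotype had 2 libraries for TFIIIC (antibody to the TFIIIC-220 subunit), 2 for H3K27me3 and 1 each for CAP-D3 and CAP-H2. Cells for TFIIIC were fixed with formaldehyde alone, and cells for the other antibodies with the protein crosslinker EGS and then formaldehyde, so any overlap between TFIIIC and another antibody joins differently fixed chromatin. Whether the numbered libraries of a group came from separate cultures is not stated in the labels, so a p-value below measures library-to-library spread, part of which may be technical. Peak lists hold no expression, so the fibroblast label could not be checked against marker genes.

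Clustered protocadherins are adhesion proteins of the cell surface, best known from neurons. Their genes stand in tandem as alpha, beta and gamma clusters; each variable exon has its own promoter, and within the alpha and the gamma cluster the variable exons are spliced to a shared set of constant exons. Individual neurons use different sets of these promoters, which gives each cell a surface identity. TFIIIC is the general factor that recruits RNA polymerase III to tRNA genes and also binds many sites without the polymerase. CAP-D3 and CAP-H2 are subunits of condensin II, a complex that compacts chromosomes, and H3K27me3 is the histone mark laid down by Polycomb repressive complex 2. The RefSeq table of build GRCm38.p6 lists 57 protein-coding genes in the 3 clusters, in the order alpha (14 genes, Pcdha1 to Pcdhac2), beta (22 genes, Pcdhb1 to Pcdhb22) and gamma (21 genes, Pcdhga1 to Pcdhgc5). Slc25a2 and Taf7 lie between them, Zmat2 before and Diaph1 after. That table is of another build than the peaks, so peaks are given by mm9 position and no peak was assigned to a gene.

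TFIIIC peaks ran through most of the locus. WT library 1 had 140 peaks there and WT library 2 had 152, against 166 in Rb1L/L library 1 and 155 in Rb1L/L library 2. These peaks covered 12.3% and 14.6% of the locus in the WT libraries and 19.1% and 18.8% in the Rb1L/L libraries. Covered length was therefore higher in both Rb1L/L libraries than in either WT library, while the peak numbers of WT library 2 and Rb1L/L library 2 differed by only 3. The Rb1L/L TFIIIC lists are also longer as a whole, with 294135 and 301874 peaks against 200350 and 239960, so the locus held 0.708 and 0.635 of every 1000 peaks in the WT lists and 0.567 and 0.515 in the Rb1L/L lists. Among 2727 windows of 960 kb laid over the genome, the share of windows with fewer TFIIIC peaks than the locus was 86.8% and 82.8% in the WT libraries and 78.0% and 75.2% in the Rb1L/L libraries.

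Peaks in the locus were wider and scored higher than peaks around it. Median width was 738 and 841 bp in WT and 1014 and 1060 bp in Rb1L/L, against 635, 633, 701 and 692 bp in the 1 Mb on each side. The score deposited with each peak, which this peak caller derives from the negative log10 of a p-value, had a median of 193, 397, 398 and 637 in the locus in the same order of libraries. In the flanks the medians were 163, 251, 187 and 259. All 4 libraries thus placed the locus above its flanks in both measures. Scores depend on the number of reads, a figure not given in the sources used here, and serve only to rank peaks within a library.

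**Figure D1:**
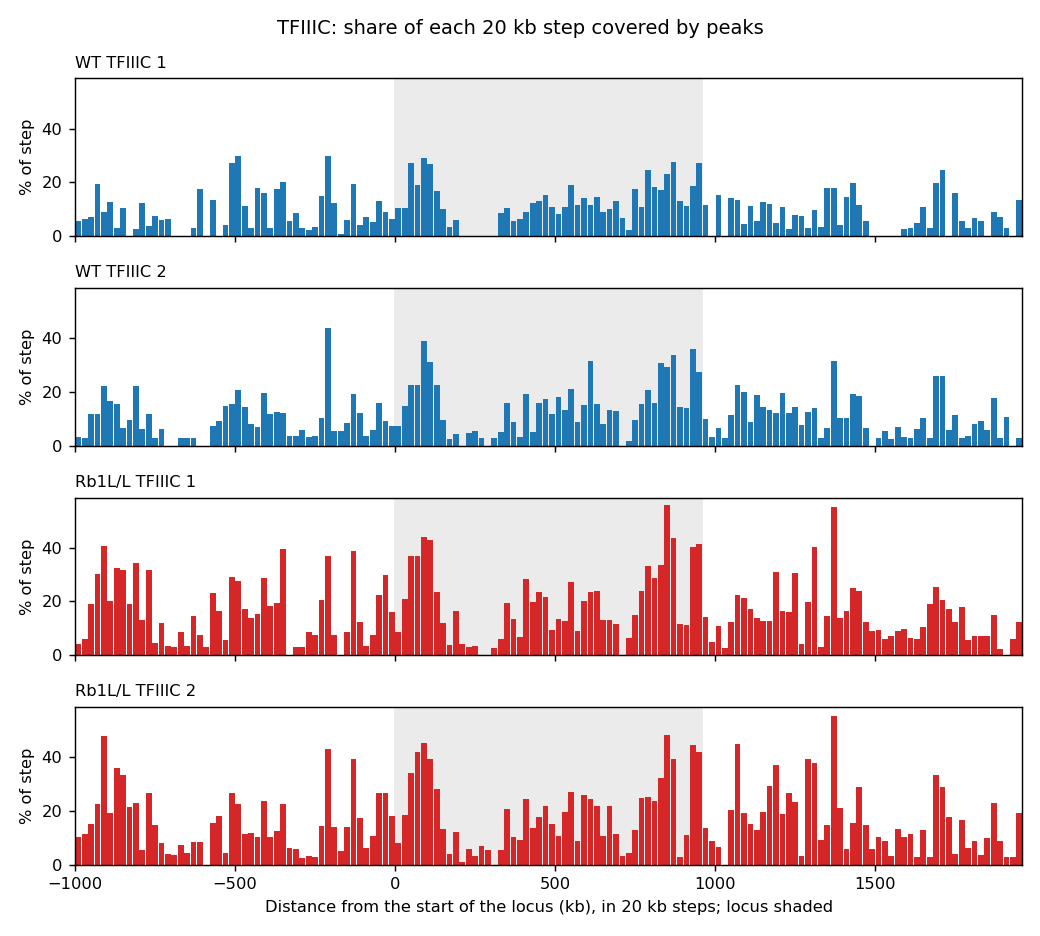
Share of each 20 kb step covered by TFIIIC peaks (percent, y axis) against distance from the start of the locus (kb, x axis) in the 4 TFIIIC libraries, WT in blue and Rb1L/L in red, with the locus shaded. Coverage in the shaded area comes as 2 tall blocks at its ends and a lower block between, and the same 120 kb are nearly empty in every library.

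In 20 kb steps the TFIIIC pattern was uneven and had the same outline in every library. Of the 48 steps, 42 and 45 held TFIIIC peaks or parts of them in the WT libraries and 45 and 47 in the Rb1L/L libraries. No step lacked them in all 4. The fullest step, chr18:37130001-37150000, was covered to 29.0% and 39.0% in WT and 43.8% and 45.4% in Rb1L/L. The next 2 were chr18:37890001-37910000, with 23.0% and 29.1% against 55.8% and 48.3%, and chr18:37910001-37930000, with 27.6% and 33.6% against 43.7% and 39.5%. In each of these 3 steps both Rb1L/L libraries lay above both WT libraries before any scaling to the longer Rb1L/L lists. After scaling to total covered length, the log2 differences in the same order were −0.26, 0.30 and −0.22, so the direction turned in the first and the last. At the other end of the range, chr18:37250001-37270000, chr18:37330001-37350000 and chr18:37350001-37370000 had a mean cover over the 4 libraries of 1.30%, 1.38% and 1.43%.

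Steps with a TFIIIC peak in every library formed 3 blocks. The first block, chr18:37050001-37250000, was 200 kb long and covered to 15.9% and 17.6% in WT and 24.5% and 24.5% in Rb1L/L. It was followed by a TFIIIC-poor gap of 120 kb, chr18:37250001-37370000, covered to 0% and 2.68% in WT and 2.20% and 3.79% in Rb1L/L. The second block, chr18:37370001-37750000, spanned 380 kb at 11.3% and 13.7% against 16.6% and 16.9%. A single step of 20 kb divided it from the third block, chr18:37770001-38010000, which spanned 240 kb at 17.6% and 20.7% against 28.8% and 26.0%. That step was covered to 6.6% and 0% in WT and 0% and 3.3% in Rb1L/L. The first step of the third block was also thinly covered, to 2.34% and 1.92% in WT and 6.5% and 4.2% in Rb1L/L. In WT library 1 the dividing step was thus the fuller of these 2. The outer blocks were fuller than the middle one in all 4 libraries. The block limits were read from these libraries, so the values describe them and carry no test.

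TFIIIC peaks of the locus were found in the same places from library to library. After overlapping peaks were merged across the 4 libraries, the locus held 190 TFIIIC regions, of which 91 (47.9%) had a peak in every library. The share over all placed chromosomes was 17.8% (77521 of 435645 regions), and it was 11.6% (34 of 293) in the 1 Mb before the locus and 9.97% (31 of 311) in the 1 Mb after it. Per Mb, that made 94.8 regions shared by all 4 libraries in the locus, 34 before it and 31 after it. Regions seen in a single library made up 42 of the 190 (22.1%), against 38.6% over the genome. Wider and higher-scoring peaks are found again more readily in another list, and the part of peak size in this sharing was not tested.

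**Figure D2:**
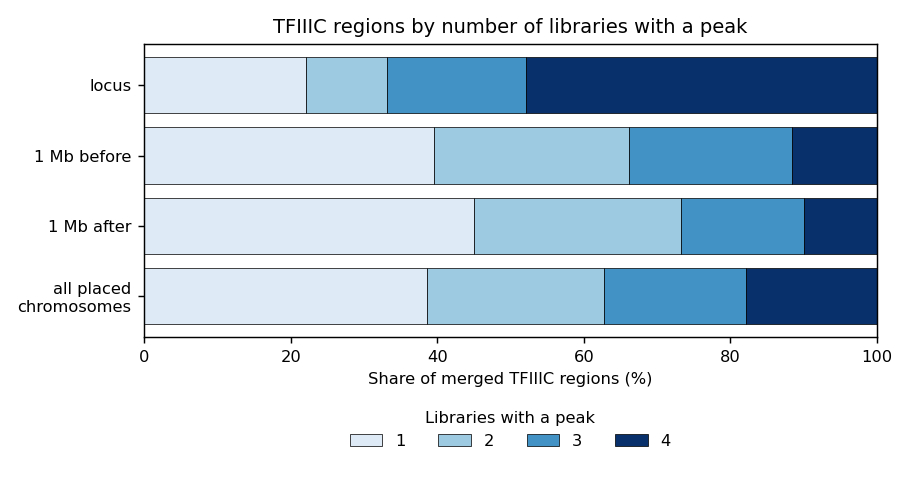
Share of merged TFIIIC regions (percent, x axis) with a peak in 1, 2, 3 or 4 of the 4 TFIIIC libraries, for the locus, the 1 Mb before and after it, and all placed chromosomes. The darkest bar, regions with a peak in all 4 libraries, reaches 47.9% in the locus and 17.8% over the genome.

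The shared regions were closely spaced. The median distance from the end of one to the start of the next was 4849 bp in the locus, against 10188 and 13345 bp in the flanks before and after it and 10994 bp over the genome. There were 26 of them (130 per Mb) in the first block, 37 (97.4 per Mb) in the second and 28 (117 per Mb) in the third. The gaps could hold none in the steps where a library had no peak, since the blocks were drawn from steps with a peak in every library. The median width of a shared region was 1498 bp.

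Among regions present in all 4 libraries, the 5 whose lowest score was highest lay in all 3 blocks. The first by this order, chr18:37925417-37928398, spanned 2982 bp and scored 1401 and 750 in WT and 1904 and 917 in Rb1L/L. At chr18:37515866-37517434 the scores were 665 and 651 against 703 and 1865. At chr18:37158404-37160261 they were 628 and 794 against 1181 and 1361. The remaining pair, chr18:37789533-37791256 and chr18:37679118-37680720, scored from 602 to 2478 and from 587 to 1400. In every library each of these 5 regions scored above that library's median for the locus. They were picked by score, so this is no separate result. Scores are not on one scale between libraries, so the order leans on the lower-scoring libraries and serves only to pick regions. None of the 5 overlapped a peak of another antibody.

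Few TFIIIC regions of the locus were seen in both libraries of one genotype and in neither of the other. Regions with a peak in both WT libraries and in neither Rb1L/L library numbered 1 of 190 (0.526%), against 1.62% over the genome. It was chr18:37624809-37625587, with scores of 91.3 and 304. Regions with a peak in both Rb1L/L libraries and in neither WT library numbered 6 (3.16%), against 9.42% over the genome and 11.9% and 12.5% in the flanks. Picked by score, the strongest were chr18:37249064-37250817, scored 667 and 417, and chr18:37821312-37822560, scored 387 and 453. Both shares of the locus were below those of the genome.

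For TFIIIC peak number the comparison with the flanks pointed in opposite directions in the 2 genotypes. WT libraries 1 and 2 had 145.8 and 158.3 peaks per Mb in the locus against 115 and 133.5 in the 2 Mb around it, ratios of 1.27 and 1.19. Rb1L/L libraries 1 and 2 had 172.9 and 161.5 peaks per Mb in the locus against 190.5 and 195 around it, ratios of 0.908 and 0.828. With these flanks both WT libraries were richer inside the locus and both Rb1L/L libraries richer outside it. With flanks of 500 kb the ratios were 1.06 and 0.996 in WT and 0.835 and 0.727 in Rb1L/L, and with flanks of 2 Mb they were 1.33 and 1.29 against 1.06 and 0.995. The side of 1 thus depended on the flank length for WT library 2 and Rb1L/L library 1, while both Rb1L/L ratios were below both WT ratios at each length. On the log2 scale the ratio averaged 0.29 ± 0.07 (SD, n = 2) in WT and −0.21 ± 0.09 (SD, n = 2) in Rb1L/L, a difference of −0.50, for which a two-sided exact permutation test gave p = 0.33, the smallest that 2 against 2 libraries allow. Mean density was 152.1 peaks per Mb in WT and 167.2 in Rb1L/L inside the locus, and 124.3 and 192.8 in the flanks.

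Covered length gave a different picture of the flanks. TFIIIC peaks covered 12.3%, 14.6%, 19.1% and 18.8% of the locus, as above, and 8.29% and 9.86% of the flanks in WT and 15.4% and 15.9% in Rb1L/L. The ratio of locus to flanks was 1.49 and 1.48 in WT and 1.24 and 1.19 in Rb1L/L, so it exceeded 1 in all 4 libraries and was again lower in both Rb1L/L libraries. An exact permutation test by sign flips over the 4 libraries gave p = 0.125 for the locus being fuller than its flanks, the smallest p that 4 libraries allow. The same exact test of peak number, where the genotypes pointed in opposite directions, gave p = 0.875. With equal numbers of top-scoring peaks from each list, a choice made after seeing the data, the ratios of peak number were 1.27 and 1.31 in WT and 1.09 and 1.08 in Rb1L/L. On that footing every library was richer inside the locus, and the Rb1L/L ratios stayed the lower ones.

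**Figure D3:**
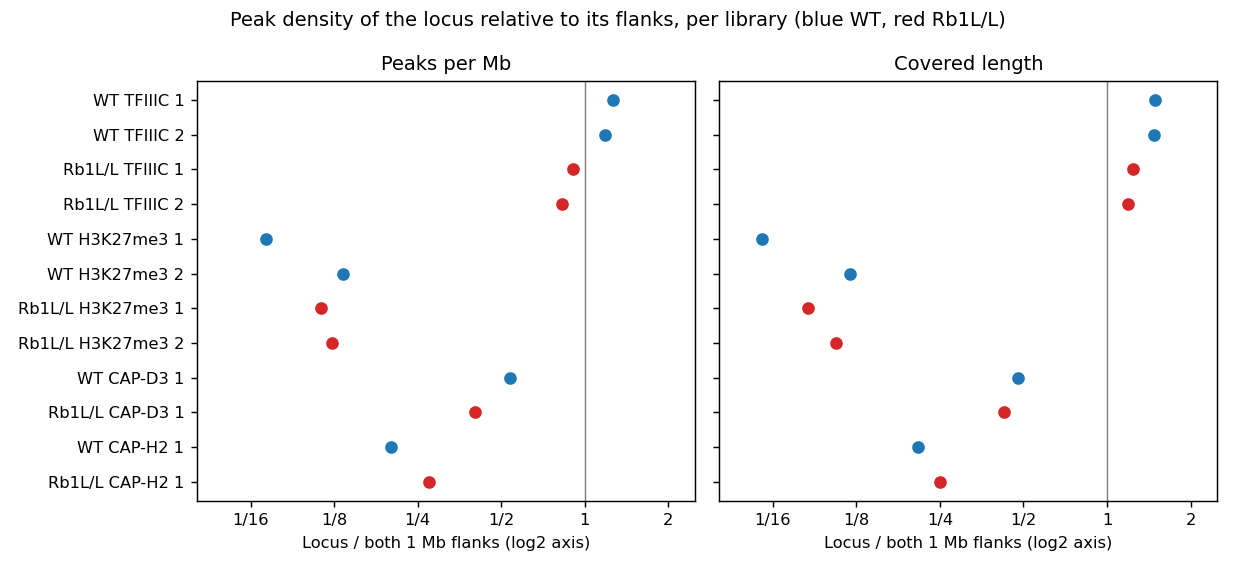
Ratio of the locus to both 1 Mb flanks in peaks per Mb (left) and covered length (right) on a log2 axis, 1 point per library, WT in blue and Rb1L/L in red; the grey line marks equal density. TFIIIC points lie around 1 on the left and above 1 on the right, and all H3K27me3, CAP-D3 and CAP-H2 points lie below 1.

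Set against all windows of its size, the locus did not pass the test for a difference between genotypes in TFIIIC. The quantity tested was the share of a library's peaks whose midpoint falls in a window. For the locus it was lower in Rb1L/L by a log2 difference of −0.31 ± 0.09 (SE), with an adjusted p of 0.420 by limma with Benjamini-Hochberg adjustment. Of the 2678 windows tested, none were called at an adjusted p under 0.05 (0%), and 265 (9.90%) had an unadjusted p under 0.05, the locus among them at 0.0146. Both Rb1L/L libraries lay below both WT libraries at the locus, as they did in 22.2% of all windows, and 4.03% of windows had a lower difference. For the share of covered length the log2 difference was −0.18 ± 0.07 (SE), adjusted p = 0.547 by limma, with 0% of windows called and 8.96% at an unadjusted p under 0.05. Without WT replicate 2 the difference in peak share at the locus was −0.39 with an adjusted p of 0.00479 by limma, with the lone WT library assumed to vary like the Rb1L/L ones, and then 450 of the 2678 windows were called.

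Step by step, no part of the locus was called for TFIIIC either. Of the 48 steps, 39 had enough covered length to test, a mean of at least 1000 bp, and none passed limma at an adjusted p under 0.05; over the genome the count was 0 of 64713 (0%), with 6.74% at an unadjusted p under 0.05. Both Rb1L/L libraries were below both WT libraries in 15 of the 39 steps, against 22.6% of steps over the genome, and above them in 4, against 19% over the genome. The median log2 difference was −0.15 over the 39 steps and 0.00 over all steps tested. The step with the smallest p, chr18:37930001-37950000, was covered to 13.0% and 14.2% in WT and 11.6% and 2.87% in Rb1L/L, a log2 difference after scaling of −1.41 ± 0.49 (SE), adjusted p = 0.708 by limma. Rb1L/L library 2 stood apart there, with 1 peak where the other 3 libraries had 4 each. A step that was not called is not shown to be equal.

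**Figure D4:**
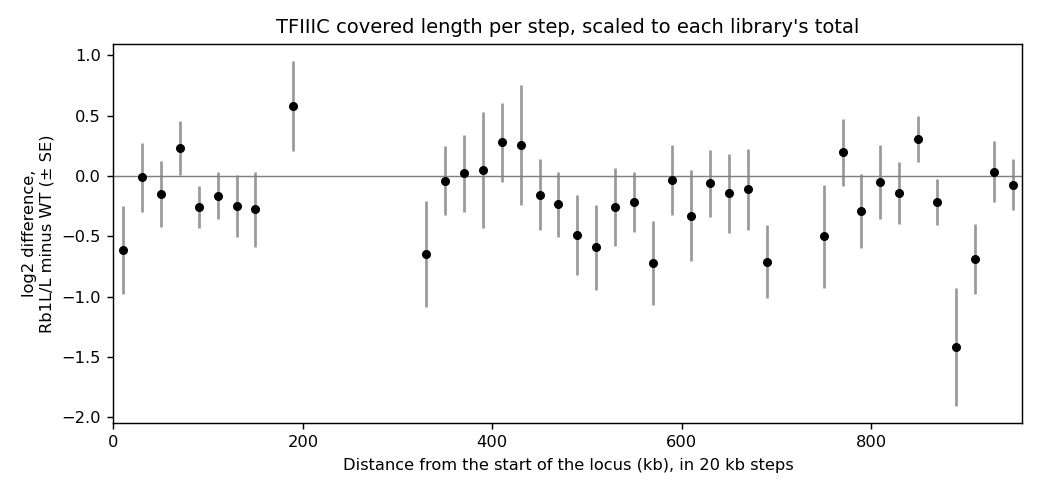
Difference in TFIIIC covered length between Rb1L/L and WT (log2, y axis; point with SE bar from limma, 2 libraries per genotype) for the 39 tested steps, against distance from the start of the locus (kb, x axis). The points have a median of −0.15, and the lowest is at −1.41.

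H3K27me3 peaks were sparse in the locus. WT libraries 1 and 2 had 3 and 9 peaks there and Rb1L/L libraries 1 and 2 had 8 and 11. They covered 0.206% and 0.782% of the locus in WT and 0.668% and 1.04% in Rb1L/L. The flanks held 44 and 69.5 peaks per Mb in WT and 74.5 and 93.5 in Rb1L/L, against 3.13, 9.38, 8.33 and 11.5 in the locus. The locus thus had between 0.071 and 0.135 of the density of its flanks in every library. The log2 ratio averaged −3.22 over the 4 libraries, and the exact permutation test by sign flips gave p = 0.125, the smallest it can give.

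Against the genome as a whole the locus was not poor in H3K27me3, and its flanks were rich. The median window of 960 kb in the genome held 3, 8, 7 and 10 H3K27me3 peaks in the 4 libraries, and the locus held 3, 9, 8 and 11. The share of windows with fewer peaks than the locus was 46.4% and 51.1% in WT and 51.7% and 50.8% in Rb1L/L, so the locus was near the middle of the genome in each library. The flanks were unevenly filled: between 25 and 36 of the 50 steps in each flank held no H3K27me3 peak, depending on the library, and the 3 steps before and the 6 steps after the locus held none in any library. As a whole the flanks stood at 3.62% and 6.58% covered in WT and 7.97% and 9.81% in Rb1L/L.

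**Figure D5:**
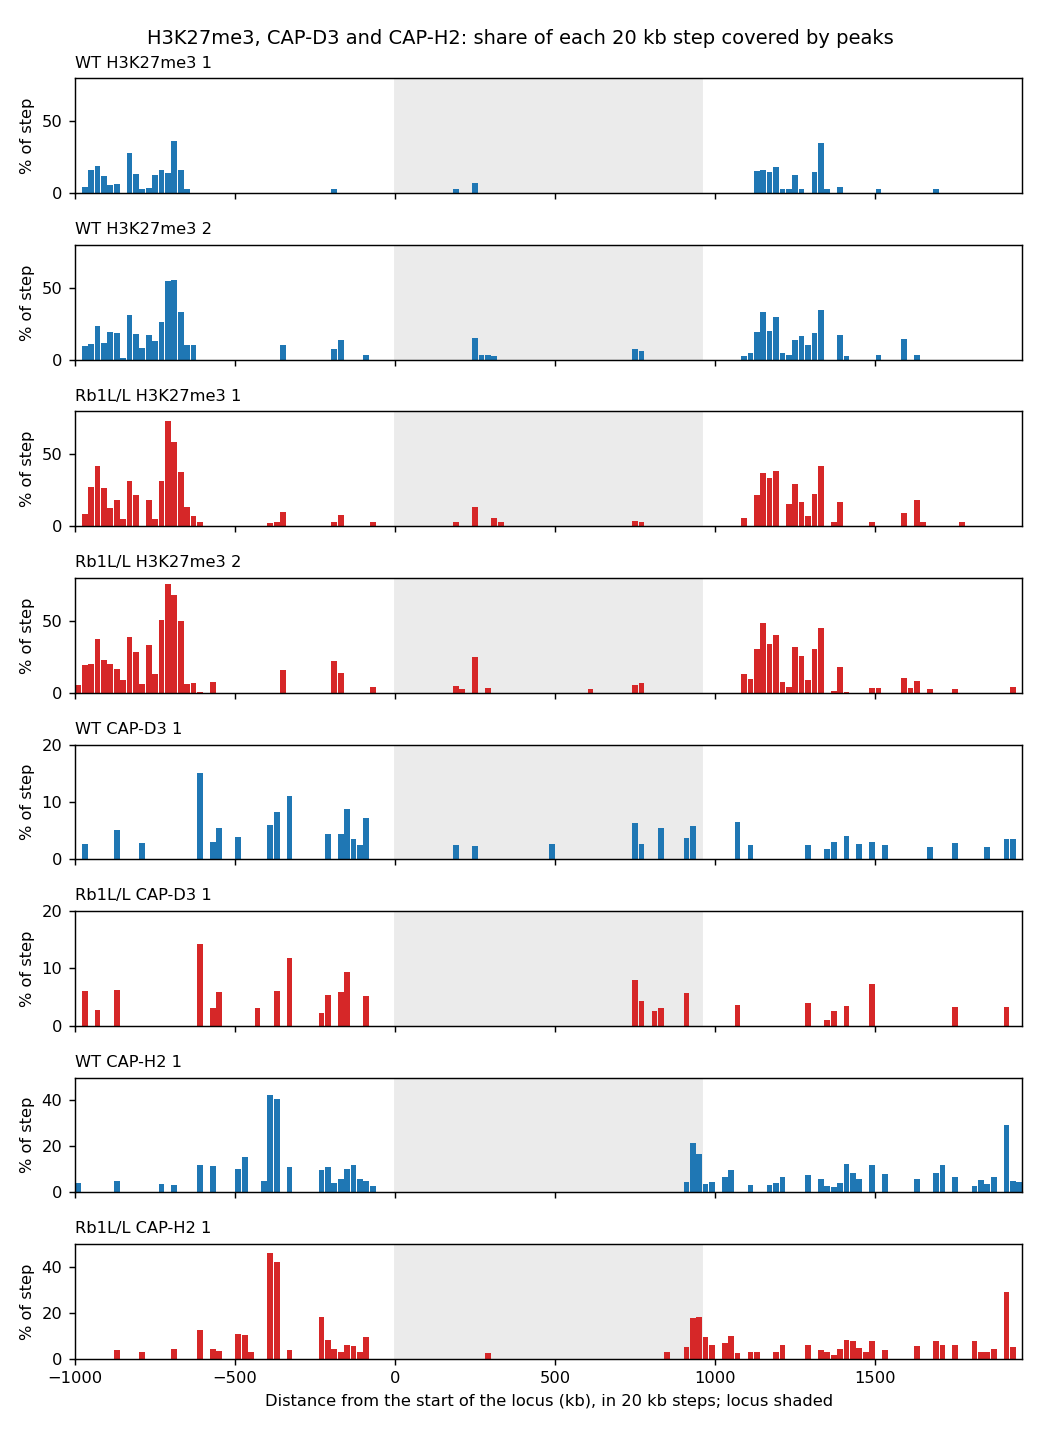
Share of each 20 kb step covered by peaks (percent, y axis; the scale differs between antibodies) of H3K27me3, CAP-D3 and CAP-H2 in each library, against distance from the start of the locus (kb, x axis), with the locus shaded, WT in blue and Rb1L/L in red. H3K27me3 peaks outside the shaded area gather in domains away from its edges, few lie inside it, and the condensin II peaks inside it gather towards its far end.

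The H3K27me3 peaks of the locus lay in a few places. Of the 48 steps, 38 had no peak in any of the 4 libraries. The TFIIIC-poor gap, 120 kb of the 960 kb, held 9 of the 19 merged H3K27me3 regions. Most of these 9 were seen in a single library, and 1 was present in all 4. The fullest step, chr18:37290001-37310000, lies in that gap and was covered to 6.94% and 15.2% in WT and 13.52% and 24.6% in Rb1L/L. The next were chr18:37790001-37810000, at 0%, 7.76%, 3.92% and 5.14%, and chr18:37810001-37830000, at 0%, 5.87%, 3.23% and 7.09%, in the order of the libraries above. WT library 1, the shortest H3K27me3 list with 24741 peaks, had none in these 2 steps.

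A single H3K27me3 region of the locus was present in all 4 libraries, 1 of 19 (5.26%) against 8.39% over the genome. It was chr18:37301667-37305404, 3738 bp wide, with scores of 381 and 443 in WT and 1122 and 843 in Rb1L/L. A WT CAP-D3 peak, chr18:37303271-37303745, lay inside it, and no TFIIIC peak overlapped it in any library. The region chr18:37806620-37808604 had a peak in WT library 2 (score 887) and in both Rb1L/L libraries (293 and 124), and was the only region with exactly 3 libraries (5.26%, against 7.78% over the genome). A peak in 1 library of each genotype was found at 3 more regions (15.8%, against 10% over the genome). They were chr18:37249267-37250484 (scores 233 in WT and 120 in Rb1L/L), chr18:37819680-37820567 (147 and 213) and chr18:37343233-37343880 (156 and 97.2). The other 14 regions were seen in a single library, 73.7% against 67.9% over the genome, and none was present in both libraries of one genotype alone, against 0.736% for WT and 5.18% for Rb1L/L over the genome.

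No difference between genotypes was called for H3K27me3 in the locus. The share of peaks differed by 0.22 ± 0.48 (SE) on the log2 scale, adjusted p = 0.961 by limma, with 0 of 1596 windows called (0%) and 3.38% at an unadjusted p under 0.05. The share of covered length differed by 0.35 ± 0.49 (SE), adjusted p = 0.923, with 1 of 2554 windows called (0.0392%). Of every 1000 peaks the locus held 0.121 and 0.196 in WT and 0.182 and 0.195 in Rb1L/L, so WT library 1 lay below both Rb1L/L libraries and WT library 2 above both. Only 1 step of the locus had enough covered length to test, chr18:37290001-37310000, and its log2 difference was 0.15 ± 0.41 (SE), adjusted p = 0.955 by limma (0.02% of steps called over the genome). These fits rest on 2 libraries per genotype with 3 to 11 peaks each in the locus.

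CAP-D3 had 9 peaks in the locus in WT and 5 in Rb1L/L, with 1 library each and so no replicate check. The log2 ratio of these counts was −0.85, with an exact 95% interval of −2.77 to 0.88 that covers counting error only, and the lists as a whole (17576 and 13233 peaks) differed by −0.41. The interval includes both 0 and the difference between the lists. The locus had 9.38 peaks per Mb in WT and 5.21 in Rb1L/L against 17.5 and 13 in the flanks, log2 ratios of −0.90 (−2.14 to 0.19) and −1.32 (−3.06 to 0.08). Both intervals reach past 0, so a lower density than in the flanks was not detectable at these counts. The median window of the genome held 5 and 3 CAP-D3 peaks, and 72.0% and 59.3% of windows held fewer than the locus.

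CAP-D3 peaks gathered in the last block. Of the 10 merged CAP-D3 regions, 7 lay in chr18:37770001-38010000, and 4 had a peak in both genotypes (40%, against 43% over the genome). The highest score was at chr18:37803245-37804822, with 3100 in both libraries, a value at which many peaks of each list are tied, so these scores cannot be ranked against each other; no CAP-H2 peak was called there. The other 3 shared regions were chr18:37874203-37875285 (983 in WT and 299 in Rb1L/L), chr18:37814717-37815807 (276 and 740) and chr18:37965356-37966507 (702 and 1149). The 5 regions of WT alone (50% of 10, against 38.5% over the genome) were chr18:37237606-37238085 (205), chr18:37303271-37303745 (242), chr18:37546898-37547426 (73.4), chr18:37978285-37978817 (216) and chr18:37984937-37985571 (307). Rb1L/L alone had 1 (10%, against 18.5%), at chr18:37854418-37854939 (803). All 3 regions outside the last block were of WT alone.

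CAP-H2 had 8 peaks in the locus in WT and 10 in Rb1L/L, a log2 ratio of 0.32 with an exact 95% interval of −1.17 to 1.87, again from 1 library each. Its density was below that of the flanks beyond counting error in both libraries. It had 8.33 and 10.4 peaks per Mb in the locus against 41.5 and 38 in the flanks, log2 ratios of −2.32 (−3.57 to −1.27) in WT and −1.87 (−2.98 to −0.91) in Rb1L/L. The median window of the genome held 13 and 12 CAP-H2 peaks, and 34.6% and 41.5% of windows held fewer than the locus. As for H3K27me3, the flanks were richer than the median window. The CAP-D3 values also pointed below the flanks in both libraries, and the difference between the subunits was not tested.

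CAP-H2 peaks stood almost wholly at the far end of the locus. Of the 10 merged CAP-H2 regions, 9 lay in the last block. All WT peaks lay in the last 320 kb of the locus, where WT had 8 and Rb1L/L 9. Steps chr18:37970001-37990000 and chr18:37990001-38010000 were covered to 21.6% and 16.8% in WT and 17.8% and 18.1% in Rb1L/L. A CAP-H2 peak was missing from 43 of the 48 steps in both libraries. Regions with a peak in both genotypes numbered 6 of 10 (60%, against 53.9% over the genome), and the highest scored was chr18:38008564-38010169, at the very end of the locus, with 633 in WT and 1209 in Rb1L/L. The others were chr18:37978385-37979618 (425 and 363), chr18:37994751-37996698 (307 and 291), chr18:37965377-37966447 (247 and 256), chr18:37984218-37986521 (200 and 527) and chr18:37983502-37984191 (87.9 and 66.9). Of the 10 regions, 1 was of WT alone (10%, against 22.9% over the genome), at chr18:37975300-37975935 (98.9), and 3 were of Rb1L/L alone (30%, against 23.2%), at chr18:37348543-37349068 (134), chr18:37901830-37902388 (118) and chr18:38001592-38002714 (203).

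The 2 condensin II subunits met at few places in the locus. A CAP-H2 peak of the same genotype overlapped 3 of 9 CAP-D3 peaks in WT (33.3%, exact binomial 95% interval 7.49% to 70.1%) and 1 of 5 in Rb1L/L (20%, 0.505% to 71.6%). In the flanks the shares were 65.7% and 76.9%, and over the genome 55.2% and 65.4%. The WT interval includes both of its reference shares, and the Rb1L/L interval includes that of the genome. Taken from the other side, a CAP-D3 peak overlapped 3 of 8 CAP-H2 peaks in WT (37.5%, 8.52% to 75.5%). In Rb1L/L it was 1 of 10 (10%, 0.253% to 44.5%). The flanks had 30.1% in WT and 25% in Rb1L/L, and the genome 21.7% and 19.8%. Both intervals include these shares, and WT lay above its shares while Rb1L/L lay below. The place at chr18:37965356-37966551 was the only one in the locus with peaks of both subunits in both genotypes, and 1 TFIIIC library also had a peak there.

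Most places with a peak in the locus belonged to 1 antibody. TFIIIC weighed most in this, with 190 merged regions against 19 for H3K27me3, 10 for CAP-D3 and 10 for CAP-H2. Merging all 12 lists gave 206 places there, of which 187 (90.8%) belonged to 1 antibody, 16 (7.77%) to 2 and 3 (1.46%) to 3, and none held all 4. Over the genome the corresponding shares were 88.7%, 9.66%, 1.49% and 0.159%, so the locus was close to the genome in each class. In the flanks before and after the locus, places of 1 antibody made up 74.4% and 81.6% and places of 2 antibodies 22.4% and 16.4%; the difference from the locus was not tested. The 3 places with 3 antibodies, chr18:37965356-37966551, chr18:37978285-37982888 and chr18:37983502-37986521, all lay within its last 3 steps and all combined TFIIIC, CAP-D3 and CAP-H2. TFIIIC had a peak in all 4 libraries at the second and in 1 library at the others. A place joins overlapping peaks in a chain, so its antibodies need not all overlap one another. At the second and the third, the CAP-D3 peak was of WT alone and overlapped no TFIIIC peak, and CAP-H2 peaks joined the 2. H3K27me3 shared a place with TFIIIC at 6 positions in the locus, and with a peak of CAP-D3 at 1. TFIIIC shared 8 places with CAP-D3 and 7 with CAP-H2. The count with CAP-D3 includes the places joined only through CAP-H2 peaks. Against each TFIIIC library of the same genotype, 11.1% to 40% of CAP-D3 peaks in the locus overlapped TFIIIC, and 20% to 50% of CAP-H2 peaks. Over the genome these shares were 20.9% to 28.6% and 22.1% to 24.5%. The locus shares rest on 5 to 10 peaks per library, and the difference was not tested.

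The variable exons of these clusters resemble one another in sequence. Reads from such copies can be placed at the wrong one or left out, depending on aligner settings not given in the sources used here, and their part in the peak patterns was not tested.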

How the data were processed

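The deposited files are peak lists in mm9, called by the authors separately for each of 12 libraries; the 8 inputs have no list here. Per the submitters' processing notes, Bowtie2 2.3.0 and MACS 1.4.0rc2 were used, with settings not given in the sources used here. The authors' score, deposited without a header, is read as derived from −log10 of a p-value. Groups came from the labels; the condensin II libraries had the input of H3K27me3 replicate 2 in WT and of replicate 1 in Rb1L/L, per the labels. Members, gene lists and tests were chosen with earlier results of these data known.

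Peaks were counted by midpoint in steps of 20 kb and windows of 960 kb aligned to the locus, chr18:37050001-38010000. A step was taken to hold a peak where a peak covered any part of it, wherever its midpoint lay. The flanks were chr18:36050001-37050000 and chr18:38010001-39010000. The log2 share of peaks (pseudocount 0.5, mean of at least 5 peaks per window) and scaled covered length (pseudocount 500 bp) were fitted with limma 3.58.1 in R 4.3.3. For covered length, a step needed a mean of at least 1000 bp and a window any cover at all. Genotypes were compared within an antibody, with Benjamini-Hochberg adjustment at 0.05 over the whole genome. The fits were also run on simulated data whose libraries varied independently. Same-numbered libraries of the real data deviated together, so that run is not used as support here. Single values had exact permutation tests. Peaks overlapping by at least 1 bp were merged. Condensin II values have exact 95% intervals for counting error only.

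Named regions were chosen by rule: per antibody, the 5 regions with the highest lowest score among those in the most libraries, all regions where there were 12 or fewer, places with 3 or more antibodies, the 3 fullest and emptiest steps and the step with the smallest p. Regions of 1 genotype alone for TFIIIC were named after their values were seen.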

Additional observations from a re-analysis of the deposited data

Results flagged for a closer look

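The TFIIIC ratio of locus to flanks in peaks per Mb was marked because, with 1 Mb flanks, the genotypes pointed in opposite directions: both WT libraries were above 1 and both Rb1L/L libraries below 1. The difference between the log2 ratios was −0.50, beside SDs of 0.07 in WT and 0.09 in Rb1L/L (n = 2 each). The exact permutation p was 0.33, the smallest the design can give, so the test cannot say whether the difference exceeds the spread between libraries. The difference was −0.40 with flanks of 500 kb, where WT replicate 2 fell below 1 (log2 ratio −0.0061), and −0.35 with flanks of 2 Mb, where Rb1L/L replicate 1 was above 1 (log2 ratio 0.085). It was −0.36 with peaks up to 1 kb apart joined and −0.25 with equal numbers of top-scoring peaks, and in the latter case all 4 libraries were above 1.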

How the results depend on the processing

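Of 145 alternatives to the results that answer a comparison, 130 kept direction and call, 1 gained a call, 11 changed direction and 3 counts moved. The TFIIIC share of peaks was −0.31; without scaling to list length it was 0.14 and the share of covered length 0.50, and that setting puts the median of all windows at 0.45 and 0.63 log2, against 0.00 and −0.05 with scaling. Leaving out 1 library gave −0.39 to −0.23 for peak share. TFIIIC locus against flanks (0.04) was −0.16 with flanks of 500 kb, −0.047 with peaks up to 1 kb apart joined and −0.055 to 0.15 with 1 library left out. H3K27me3 peak share (0.22) was −0.012 in the first 480 kb and −0.057 to 0.49 with 1 library left out, its covered share (0.35) −0.11 to 0.82, and the genotype difference in its flank ratio (0.26) −0.20 to 0.72, and −0.27 with equal numbers of top-scoring peaks. In these H3K27me3 results the sign turned when WT replicate 1 was left out. TFIIIC regions in every library (91) numbered 80 with gaps of up to 1 kb joined and 111 without WT replicate 1, and are among the 130. Also among the 130 are the counts of steps called in the locus, which were 0 in every setting. H3K27me3 regions in every library numbered 1 to 2. The cause of these changes was not tested. Of 30 alternatives for named regions, 26 kept their libraries. With a score of at least 100 required, chr18:37343233-37343880 (H3K27me3) kept 1 library of 2, and chr18:37546898-37547426 (CAP-D3), chr18:37975300-37975935 and chr18:37983502-37984191 (both CAP-H2) kept none.

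Replicate numbers did not pair the libraries by any label. Same-numbered libraries deviated together over windows (correlation 0.68 for TFIIIC and 0.42 for H3K27me3 peak share, 0.73 and 0.24 for covered length). Over 20 kb steps the correlation was weaker, at 0.07 for TFIIIC and 0.18 for H3K27me3 covered length. With a replicate block the locus differences stayed at −0.31 (adjusted p = 0.167 by limma) and 0.22 (adjusted p = 0.916), neither called, and 6 windows against 0 were called for TFIIIC peak share and 123 against 0 for covered share. The number of reads, a figure not given in the sources used here, limits each comparison of peak numbers.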
